A study of Mus musculus with 2 samples.

Results

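The clustered protocadherins are 3 neighbouring families of cell adhesion genes on mouse chromosome 18, named alpha, beta and gamma. Their 57 protein-coding members, taken by symbol from 43346 genes with an Ensembl identifier, comprise 14 alpha, 22 beta and 21 gamma genes. All lie on the plus strand of chromosome 18 (GRCm38). The alpha genes span 36930184 to 37187661, the beta genes 37264938 to 37524479 and the gamma genes 37661793 to 37841873. Pcdhgb8 lies in the gamma cluster, is annotated as a polymorphic pseudogene, and is therefore not among the 57. ENSMUSG00000007440 and ENSMUSG00000102206 share the symbol Pcdha11 in the GENCODE annotation used, and the first of them is called Pcdha10 here, the RefSeq name at its position. No member was listed at 0 counts in either library. The RNA came from the brain of 1 male mouse aged 10 weeks, of the inbred strain C57BL/6J, for which the labels name no treatment. Poly(A) RNA was sequenced in 2 libraries that the labels name technical replicates 1 and 2 of biological replicate 1. There is 1 group, so the comparison that the data allow is between replicate 2 and replicate 1, and it holds no difference between animals.

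Clustered protocadherins are cadherin-like membrane proteins that bind their own kind on neighbouring cells. Each alpha and gamma gene has its own large first exon, which encodes the extracellular and membrane-spanning parts and is spliced to constant exons shared by the whole cluster. Beta genes have no constant exons and are mostly a single exon. In most neurons a few promoters of these genes are chosen at random through CTCF and cohesin, which gives each cell its own surface combination and lets branches of 1 cell avoid each other. The C-type genes at the end of the alpha and gamma clusters (Pcdhac1, Pcdhac2, Pcdhgc3, Pcdhgc4 and Pcdhgc5) are controlled differently and tend to be used by whole cell classes. In tissue RNA these choices are summed over all cells, and fewer cells of a type and less RNA per cell cannot be told apart.

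Replicate 2 held 17828479 counts and replicate 1 held 18302485. The TMM-scaled library size of replicate 2 was 1.49 times that of replicate 1, whereas the ratio of the totals was 0.974, so that the choice between them shifts every log2 count ratio by 0.61. Over all 16320 genes tested, the median log2 count ratio of replicate 2 over replicate 1 was 0.09 with TMM sizes and 0.70 with totals, and the median log2 ratio of TPM + 1 was 0.71. Markers of brain cells were present in both libraries. The summed TPM of 5 markers each was 4108 in replicate 2 and 4149 in replicate 1 for neurons, 793.5 and 701 for astrocytes, 5221 and 2165 for oligodendrocytes, 184.9 and 64.7 for microglia, and 129.2 and 94.5 for endothelium. The choroid plexus markers summed to 880.4 TPM in replicate 2 and 84.3 TPM in replicate 1, the olfactory sensory neuron markers to 227.8 and 12.9 TPM, and the serotonergic markers to 30.1 and 26.8 TPM. Gng13 carried most of the olfactory sum, at 205.1 TPM in replicate 2 and 10.5 TPM in replicate 1. Ttr carried most of the choroid plexus sum, at 855.8 and 72.0 TPM. Snap25 carried most of the neuron sum, at 2764 and 3457 TPM. The other neuron markers were higher in replicate 2, such as Rbfox3 at 130.5 and 14.7 TPM. Such sums therefore do not measure cell content. Folr1 and Omp were at 0 in replicate 1, and none of the 40 markers was at 0 in replicate 2. The part of these marker differences in the protocadherin values was not tested.

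The alpha and beta clusters had nearly the same summed level in both libraries when all transcripts were used, and the gamma cluster did not. Summed TPM, a level per transcript length, was 56.5 in replicate 2 and 54.7 in replicate 1 for the alpha cluster (55.6 ± 1.24, SD, n = 2). The beta cluster summed to 63.0 TPM in replicate 2 and 57.5 TPM in replicate 1 (60.2 ± 3.85). The gamma cluster summed to 277.1 TPM in replicate 2 and 46.0 TPM in replicate 1 (161.5 ± 163), a 6.03-fold higher value in replicate 2. From transcripts with a first exon of at least 2000 bases alone, the gamma sums were 182.1 TPM in replicate 2 and 40.5 TPM in replicate 1, 4.49-fold. The alpha sums were then 55.0 and 36.3 TPM, 1.51-fold, and the beta sums 61.7 and 56.1 TPM. With all transcripts the 3 clusters stood within a narrow band in replicate 1, whereas the gamma cluster dominated in replicate 2. Most members were low, and 55 of the 57 in replicate 2 and 50 in replicate 1 had 1 TPM or more. The median TPM over all members was 3.48 in replicate 2 and 2.34 in replicate 1.

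**Figure D1:**
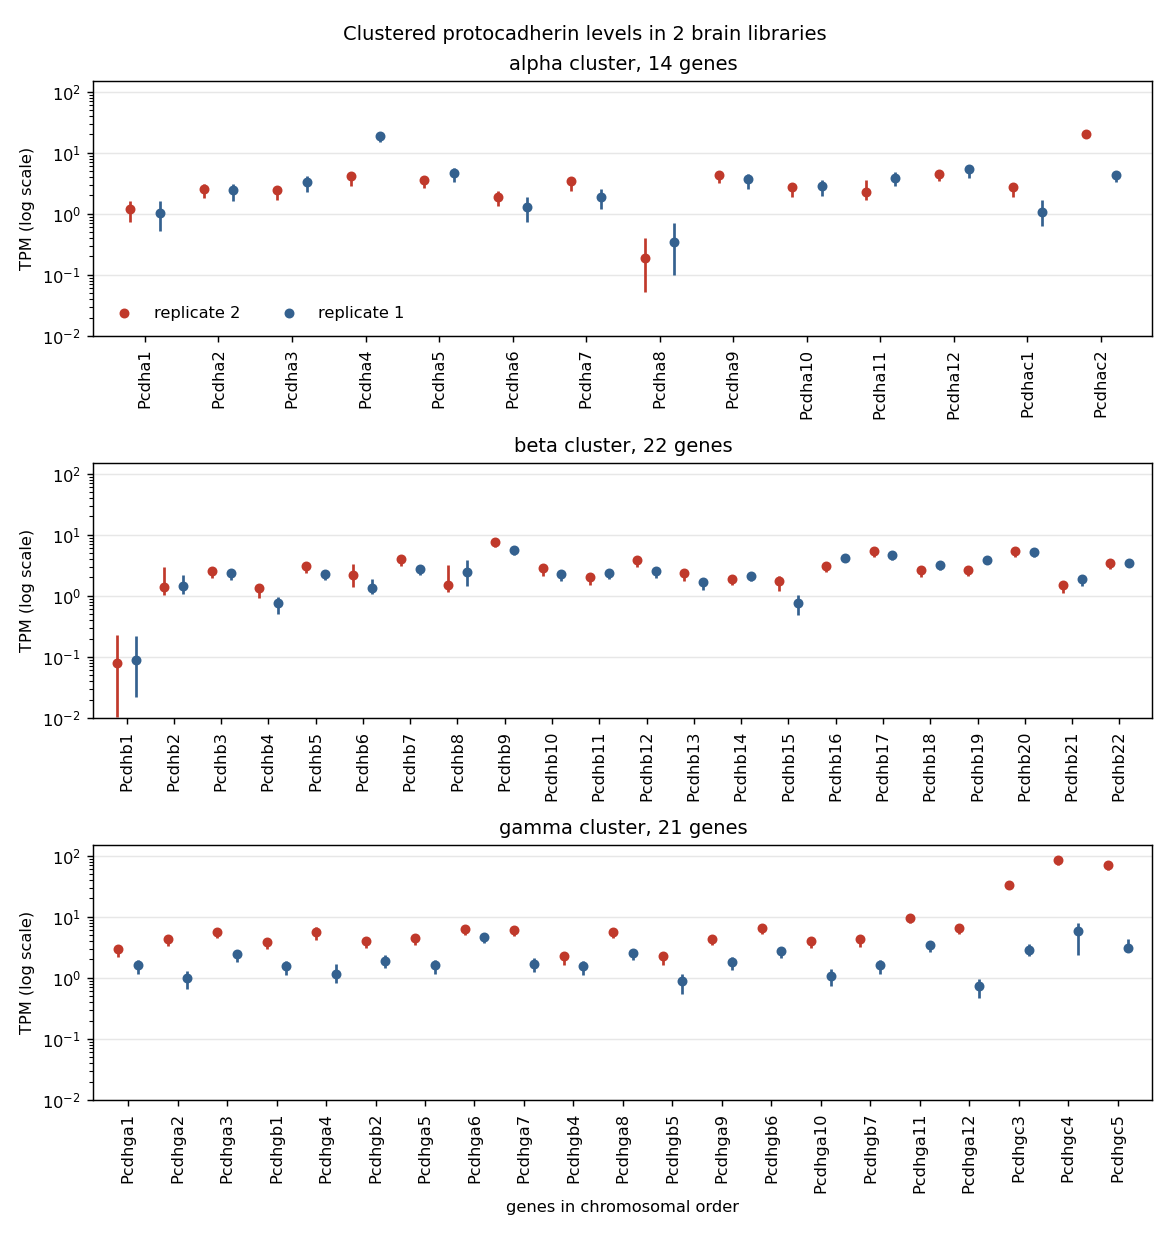
TPM of each of the 57 clustered protocadherin genes (log axis) in replicate 2 (red) and replicate 1 (blue), in chromosomal order in 3 panels. Points are the deposited TPM and vertical lines the deposited credibility intervals. The gamma points of replicate 2 all stand above those of replicate 1, and the 3 C-type genes at the right end of the gamma panel stand between 33.6 and 84.5 TPM in replicate 2, against 2.90 to 5.79 TPM in replicate 1.

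Counts were compared with a two-sided exact binomial test per gene, adjusted by Benjamini-Hochberg over all genes tested, and a gene was called at an adjusted p under 0.05 and at least 2-fold. Such a call compares 2 libraries and has no replicate check. Of the 56 members with enough counts to test, 7 were called higher in replicate 2 and 16 lower. Across all genes, 34.5% were called higher and 24.0% lower. The count ratio of the summed members, scaled by TMM, was 0.576 for alpha (95% exact interval 0.549 to 0.604), 0.523 for beta (0.497 to 0.550) and 2.68 for gamma (2.57 to 2.79). These intervals cover counting error only. The median log2 count ratio was -1.07 over the alpha members, -0.77 over the 21 beta members tested and 0.51 over the gamma members, which lies 1.16 and 0.86 below and 0.42 above the median of all genes. On the scale of TPM + 1 the medians were 0.01, 0.09 and 1.03, so the sign for alpha and beta depends on the scaling. Measured from the all-gene median on this scale, alpha stood at -0.70, beta at -0.62 and gamma at 0.32. With library totals in place of TMM, 15 members were called higher and 3 lower, where 43.6% of all genes were called higher and 7.9% lower.

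Among the 12 alternate alpha genes, the ones with ordinary first exons, 8 were called lower in replicate 2 and none higher with TMM sizes. Their TPM were mostly alike. With TMM sizes 24.0% of all genes were called lower and 34.5% higher. With library totals, 3 of the alternate alpha genes, Pcdha4, Pcdha8 and Pcdha11, were called lower, where 7.9% of all genes were. Pcdha12 (chromosome 18, 37020149 to 37187657) had 4.54 TPM in replicate 2 and 5.34 TPM in replicate 1, and its TMM-scaled count ratio was 0.432 (adjusted p = 1.03e-25, exact binomial test). Without Pcdha4, which is described next, the alternate alpha levels lay between 0.19 and 4.54 TPM in replicate 2 and between 0.34 and 5.34 TPM in replicate 1. Pcdha8 was the lowest in both libraries, at 0.19 TPM in replicate 2 and 0.34 TPM in replicate 1. Its deposited credibility intervals overlapped, at 0.053 to 0.40 TPM and 0.10 to 0.72 TPM.

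Pcdha4 (ENSMUSG00000104252) stood apart from the other alternate alpha genes, and only in replicate 1. It had 4.10 TPM in replicate 2 and 18.6 TPM in replicate 1, from 209.8 and 1057 counts. Its TMM-scaled count ratio was 0.134 (interval 0.115 to 0.155; adjusted p = 3.46e-219, exact binomial test), the lowest log2 ratio of any member. Most Pcdha4 counts of replicate 1 were assigned to 1 transcript, and whether that assignment is right was not tested. A 5-exon transcript with a first exon of 1693 bases held 63.8 counts in replicate 2 and 1043 counts in replicate 1. The 4-exon transcript with the full first exon of 2503 bases held 146.1 counts in replicate 2 and 14.1 counts in replicate 1. From the full-length transcript alone, Pcdha4 was called higher in replicate 2, the opposite direction (log2 count ratio 2.76, adjusted p = 1.01e-18, exact binomial test).

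The alpha C-type genes stood higher in replicate 2 in TPM. Pcdhac2, which serotonergic neurons of mice need to space their axons, had 20.5 TPM in replicate 2 and 4.38 TPM in replicate 1 (12.4 ± 11.4, SD, n = 2). Its counts were 1266 in replicate 2 and 359 in replicate 1, and it was the only alpha member called higher (TMM-scaled count ratio 2.37, interval 2.11 to 2.67; adjusted p = 1.70e-53, exact binomial test). The serotonergic marker Tph2, the enzyme that starts serotonin synthesis in neurons, was at 9.83 TPM in replicate 2 and 12.1 TPM in replicate 1, and the serotonin transporter gene Slc6a4 was at 5.28 and 1.78 TPM. Pcdhac1, the other alpha C-type gene, had 2.76 TPM in replicate 2 and 1.07 TPM in replicate 1. Its count ratio of 1.31 (interval 0.995 to 1.74) did not pass the test (adjusted p = 0.065, exact binomial test). Its deposited TPM intervals did not overlap, at 1.92 to 3.18 TPM in replicate 2 and 0.62 to 1.68 TPM in replicate 1.

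Most beta genes had similar levels in both libraries, with every log2 ratio of TPM + 1 between -0.49 and 0.63. The plain TPM ratio of replicate 2 over replicate 1 ran from 0.596 for Pcdhb8 to 2.25 for Pcdhb15. Deposited TPM intervals were apart for 4 beta genes higher in replicate 2 and for 2 lower. Among genes with a mean TPM of 1 or more, 59.5% were higher and 15.0% lower by that rule. Pcdhb9 (37400855 to 37403909) led with 7.72 TPM in replicate 2 and 5.69 TPM in replicate 1. Pcdhb20 followed in the mean with 5.39 TPM in replicate 2 and 5.22 TPM in replicate 1. Pcdhb17 had 5.42 TPM in replicate 2 and 4.69 TPM in replicate 1. The deposited intervals of Pcdhb20 and Pcdhb17 overlapped within each library, so their order is not settled. Pcdhb1, the first gene of the cluster, was nearly silent, with 2 counts in replicate 2 and 3 counts in replicate 1, under the count minimum of 10 and no more than the 3 counts that a count of 0 allows. The other 21 beta genes lay between 1.33 and 7.72 TPM in replicate 2 and between 0.75 and 5.69 TPM in replicate 1.

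No beta gene was called higher in replicate 2 and 8 were called lower with TMM sizes, where 34.5% and 24.0% of all genes were. None was called in either direction with library totals or after the median of genes of like GC content was removed. Library totals gave 43.6% of all genes higher and 7.9% lower, and the GC rule 13.1% and 10.3%. The lowest log2 TPM ratio was that of Pcdhb8, at -0.49, with 1.49 TPM in replicate 2 and 2.50 TPM in replicate 1. That level holds a short 2-exon transcript of 462 bases, with 0 counts in replicate 2 and 5.76 counts, or 1.43 TPM, in replicate 1. The counts of Pcdhb8 as a gene were 51 in replicate 2 and 54 in replicate 1. The highest log2 TPM ratio was that of Pcdhb15, at 0.63, with 1.73 TPM in replicate 2 and 0.77 TPM in replicate 1.

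All 21 gamma genes had a higher TPM in replicate 2, while Pcdhga1, Pcdhga6 and Pcdhgb4 had a TMM-scaled count ratio below 1. The 12 alternate genes of the A subfamily summed to 66.2 TPM in replicate 2 and 23.9 TPM in replicate 1, and the 6 of the B subfamily to 23.2 and 10.2 TPM. The TMM-scaled count ratio was 1.42 for A (interval 1.33 to 1.51) and 1.26 for B (1.14 to 1.40), so the intervals overlapped. Of these 18 alternate genes, 3 were called higher, where 34.5% of all genes were. All 3 were A genes, namely Pcdhga2, Pcdhga4 and Pcdhga12. They were chosen for naming after their values were seen. Pcdhga12, the last alternate gene before the C-type genes, had 6.51 TPM in replicate 2 and 0.73 TPM in replicate 1 (TMM-scaled count ratio 4.63, interval 3.43 to 6.36; adjusted p = 9.66e-33, exact binomial test). It was the lowest gamma gene in replicate 1 and above the alternate median of 4.47 TPM in replicate 2. Pcdhga2 had 4.39 TPM in replicate 2 and 0.99 TPM in replicate 1, and Pcdhga4 had 5.61 TPM in replicate 2 and 1.16 TPM in replicate 1.

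Of the 18 alternate gamma genes, 16 had deposited TPM intervals that did not overlap between the libraries, higher in replicate 2. The intervals of Pcdhga6 and Pcdhgb4 overlapped. By the same rule 59.5% of genes with a mean TPM of 1 or more were higher in replicate 2 and 15.0% lower. Pcdhgb4 had the lowest log2 ratio of TPM + 1 in the cluster, 0.35, with 2.27 TPM in replicate 2 and 1.57 TPM in replicate 1. In plain TPM, without the added 1, Pcdhga6 was lowest, at 1.36-fold against 1.45-fold for Pcdhgb4. Pcdhga6 had 6.40 TPM in replicate 2 and 4.71 TPM in replicate 1 and was the highest alternate gamma gene in replicate 1. Its TMM-scaled count ratio was 0.688 (interval 0.586 to 0.807), below 1 although its TPM was higher in replicate 2. Genes of the same subfamily and the same structure thus ranged from 0.688 to 4.63 in count ratio.

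The gamma C-type genes carried most of the difference between the libraries. Pcdhgc5, the last gene of the cluster, had 69.6 TPM in replicate 2 and 3.14 TPM in replicate 1 (36.4 ± 47.0, SD, n = 2). Its gene-level counts were 2675 in replicate 2 and 207.4 in replicate 1. The TMM-scaled ratio of 8.69 (interval 7.54 to 10.1) was the highest of any member by gene-level counts. Pcdhgc4, which cortical interneurons of mice need for survival, had 84.5 TPM in replicate 2 and 5.79 TPM in replicate 1 (45.2 ± 55.7), with a count ratio of 7.81 (6.71 to 9.14; adjusted p = 4.17e-269, exact binomial test). Pcdhgc3, which promotes dendrite branching in mouse cortical neurons through Axin1, had 33.6 TPM in replicate 2 and 2.90 TPM in replicate 1 (18.2 ± 21.7), with a count ratio of 5.92 (5.08 to 6.93; adjusted p = 1.80e-178, exact binomial test). By gene-level TPM these 3 genes were the highest of all 57 in replicate 2. From transcripts with a first exon of at least 2000 bases alone, Pcdhgc4 had 7.04 TPM there, below Pcdhac2 at 20.5 TPM. In replicate 1 the deposited intervals of the 3 gamma C-type genes, from 2.31 to 7.96 TPM, overlapped those of several alternate gamma genes.

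The C-type share of alpha TPM was 41.1% in replicate 2 and 9.96% in replicate 1. The corresponding gamma share was 67.7% in replicate 2 and 25.7% in replicate 1. By counts the C-type share of alpha was 44.2% in replicate 2 (95% exact Clopper-Pearson interval 42.5 to 46.0) and 11.7% in replicate 1 (10.7 to 12.8). For gamma it was 59.5% in replicate 2 (58.6 to 60.5) and 21.2% in replicate 1 (19.7 to 22.8). These intervals were apart in both clusters. From transcripts with a first exon of at least 2000 bases alone, the share of TPM was 42.3% in replicate 2 and 15.0% in replicate 1 for alpha, and 51.3% and 15.8% for gamma. The alternate genes summed to 33.2 TPM in replicate 2 and 49.3 TPM in replicate 1 in the alpha cluster, and to 89.4 and 34.1 TPM in the gamma cluster.

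**Figure D2:**
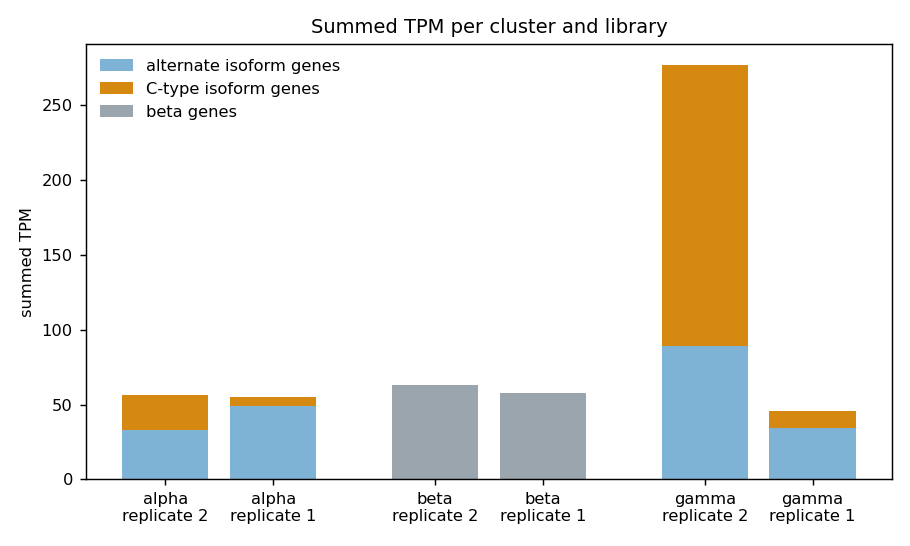
Summed TPM of the alpha, beta and gamma clusters in replicate 2 and replicate 1. Bars are stacked as alternate (light blue) and C-type (orange) genes, and beta genes are grey. Alpha and beta bars stand between 54.7 and 63.0 TPM, and the gamma bar stands at 277.1 TPM in replicate 2 and 46.0 TPM in replicate 1, with C-type genes at 187.7 and 11.8 TPM.

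The effective number of genes, the number of equally expressed genes that would give the same Shannon entropy, was 9.17 in replicate 2 and 9.25 in replicate 1 for alpha, and 18.8 in both for beta. For gamma it was 9.42 in replicate 2 and 18.2 in replicate 1. It took 2 gamma genes to reach 50% of the cluster's TPM in replicate 2 and 7 in replicate 1, against 7 beta genes and 3 alpha genes in each library. These values use gene-level TPM. In replicate 2, 91.7% of the Pcdhgc4 level came from a transcript with a first exon of 153 bases. Levels of the same genes in the 2 libraries had a Spearman rho of 0.741 over the 14 alpha, 0.826 over the 22 beta and 0.677 over the 21 gamma genes. These rho values are descriptions across genes, which share both libraries and are not independent replicates.

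How certain a level is depended on gene structure. In the longest protein-coding 4-exon transcript of each gene, the first exon had 2346 to 3028 bases in the alpha cluster and 2542 to 2961 bases in the gamma cluster, and the shared exons behind it added 2860 bases in alpha and 2119 bases in gamma. Reads from the shared exons match every gene of the cluster and were divided among them by estimation. The deposited posterior SD of the count, the spread that this division leaves, had a median of 10.1% of the count in replicate 2 and 14.1% in replicate 1 over alpha genes, and 5.60% and 10.7% over gamma genes. It was exactly 0 in both libraries for 20 of the 22 beta genes, and at most 1.52% for Pcdhb21 and Pcdhb22. That is near the share over all genes tested, of which 88.0% in replicate 2 and 90.1% in replicate 1 were at 0. No alpha or gamma gene was at 0. The beta counts are therefore direct, and those of alpha and gamma genes are partly estimates. Counted by deposited TPM intervals that do not overlap, 25 members were higher in replicate 2 and 3 lower. The same rule gave 59.5% higher and 15.0% lower across genes whose mean TPM was 1 or more. The 25 were 2 alpha, 4 beta and 19 gamma genes. The 2 gamma genes whose intervals overlapped were 1 A and 1 B gene.

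The level of Pcdhgc4 rested almost wholly on shared sequence. A 4-exon transcript of 2272 bases, of which the first exon is 153 bases and the rest the constant exons, held 77.5 TPM in replicate 2 and 5.43 TPM in replicate 1. That was 91.7% of the gene's level in replicate 2 and 93.7% in replicate 1, by the deposited shares. The transcript with the full first exon of 2905 bases held 6.80 TPM in replicate 2 and 0.13 TPM in replicate 1. From transcripts with a first exon of at least 2000 bases alone, Pcdhgc4 had 7.04 TPM in replicate 2 and 0.36 TPM in replicate 1, and it moved to the rank of 4 in replicate 2 and 21 in replicate 1 among gamma genes. It was still called higher in replicate 2 (adjusted p = 4.53e-57, exact binomial test). By this rule its log2 count ratio was 3.65, above the 3.08 of Pcdhgc5. Pcdhgc5 had 52.7 TPM in replicate 2 and 3.14 TPM in replicate 1 by this rule and then ranked first in replicate 2. The full-length transcript held most of the level of Pcdhgc3, with 32.9 TPM in replicate 2 and 2.76 TPM in replicate 1.

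**Figure D3:**
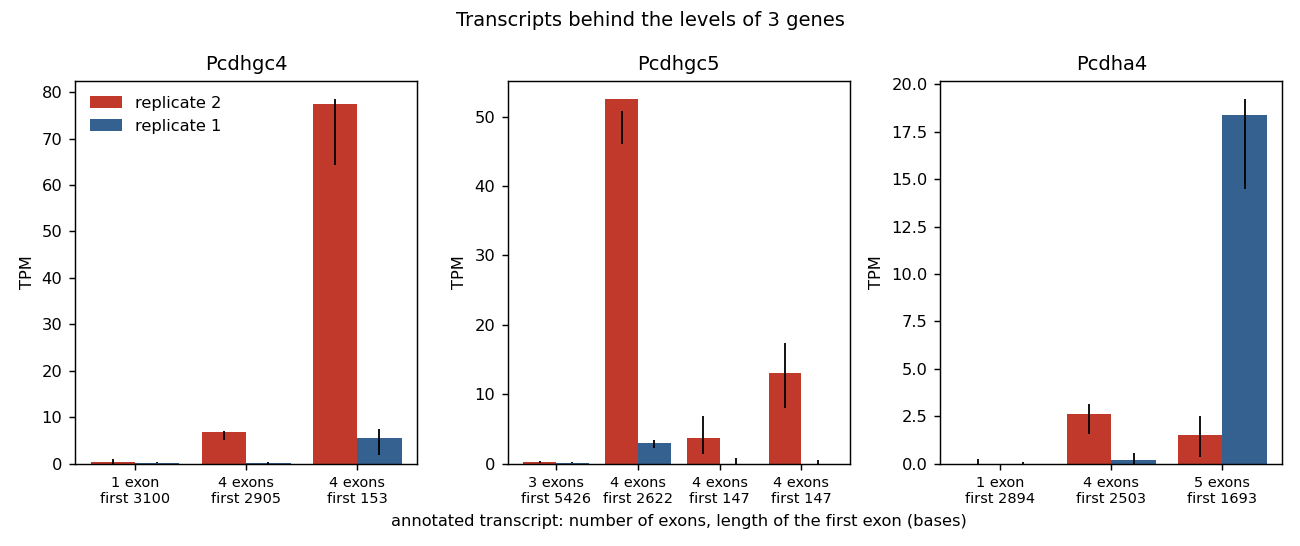
TPM of each annotated transcript of Pcdhgc4, Pcdhgc5 and Pcdha4 in replicate 2 (red) and replicate 1 (blue), labelled by number of exons and first exon length in bases. Bars are the deposited TPM and black lines the deposited credibility intervals, which belong to the posterior mean and may lie off the top of the bar. Pcdhgc4 rests on the transcript with a first exon of 153 bases in both libraries, and Pcdha4 on the 5-exon transcript in replicate 1, at 18.4 TPM.

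Several alpha genes are annotated with 4 exons, called the whole form of the last constant exon here, and with 5 exons, called split. Transcripts were sorted by exon number alone, and the split forms are not all alike. They had 2436 bases shared with other members in Pcdha1 and Pcdha4. In Pcdha2, Pcdha6 and Pcdha11 they had 2163. The split forms together summed to 6.03 TPM over 4 genes in replicate 2 and to 18.4 TPM over 1 gene, Pcdha4, in replicate 1. The whole form summed to 50.2 TPM in replicate 2 and 36.1 TPM in replicate 1. Pcdha2 was assigned to the split form in replicate 2, with 124.3 counts there and 0 in replicate 1, while its gene-level TPM was 2.57 in replicate 2 and 2.44 in replicate 1. Pcdha6 likewise had 89.7 split-form counts in replicate 2 and 0 in replicate 1. In replicate 2 the deposited TPM intervals of the split and whole forms overlapped for both genes, so that the form is not settled there. They ran to 2.71 TPM (split, from 0.73) and 1.59 TPM (whole) for Pcdha2 and to 1.51 and 1.43 TPM for Pcdha6. In the gamma cluster, Pcdhgb2 had 8.39 counts in replicate 2 and 71 counts in replicate 1 on a single-exon retained-intron transcript, and 177.7 and 0 counts on its 4-exon transcript. The intervals of these transcripts overlapped in replicate 1, at 0.42 to 2.09 TPM for the single-exon form and up to 1.41 TPM for the 4-exon form, and the division is not settled there either. These genes were chosen for description after their transcript values were seen. Transcripts with a first exon under 2000 bases made up 2.64% of alpha TPM in replicate 2 and 33.6% in replicate 1. In the beta cluster they made up 2.05% in replicate 2 and 2.49% in replicate 1, and in the gamma cluster 34.3% and 11.8%. With these transcripts left out, 1 of the 57 members, Pcdha4, changed its call.

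The clusters differ in base composition, and the library ratio went with it. Transcript GC content had a median of 47.5% over alpha genes, 46.5% over beta genes and 52.6% over gamma genes, against 49.8% over all genes tested. The alpha first exons were GC-rich, with a median of 53.1%, and the alpha constant exons had 42.2%. The gamma first exons had a median of 52.6% and the gamma constant exons 53.7%. Over all members the log2 TPM ratio was higher at higher transcript GC content (Spearman rho 0.816, n = 57, across genes that share constant exons and both libraries), and within clusters rho was 0.451 for alpha, 0.635 for beta and 0.705 for gamma.

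Genes of like GC content across the whole table were set beside the members in classes of 5 percentage points. The 7 beta genes between 40 and 45% had a median log2 count ratio of -1.26, and the 3084 genes of that class had -1.30, 74.6% of them called lower. The 13 beta genes between 45 and 50% had -0.54, and the 4328 genes of that class -0.47. Over the 21 beta genes tested, 11 lay above and 10 below the median of their class, and the median difference was 0.00061. The 12 alternate alpha genes lay below their class, with 11 of 12 under its median and a median difference of -0.69 on the log2 scale. The 18 alternate gamma genes also lay below their class, with 15 of 18 under its median and a median difference of -0.57. The 20 gamma genes between 50 and 55% had a median log2 count ratio of 0.48, and the 4196 genes of that class 1.01, with 47.8% called higher.

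The C-type genes were mixed against their classes. Pcdhac1 lay 0.86 and Pcdhac2 1.72 above the median of genes between 45 and 50%, on the log2 scale, at GC contents of 46.5 and 49.8%. Pcdhac2 thus stood at the upper edge of its class. Its log2 count ratio was 1.24, and the median of genes between 50 and 55% was 1.01. Pcdhgc4 lay 1.95 and Pcdhgc5 2.10 above the median of genes between 50 and 55%, and both lay within 1 percentage point of the upper edge of the class, at 54.3 and 54.9%. Pcdhgc3, at 55.3%, lay 0.71 below the median of genes between 55 and 60%, which was 3.28 with 90.8% called higher. After removal of the class medians, 4 members were called higher, where 13.1% of all genes were, namely Pcdhac2, Pcdhga12, Pcdhgc4 and Pcdhgc5. The 6 called lower, against 10.3% of all genes, were Pcdha4, Pcdha8, Pcdha11, Pcdhga1, Pcdhga6 and Pcdhgb4, and no beta gene was called.

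**Figure D4:**
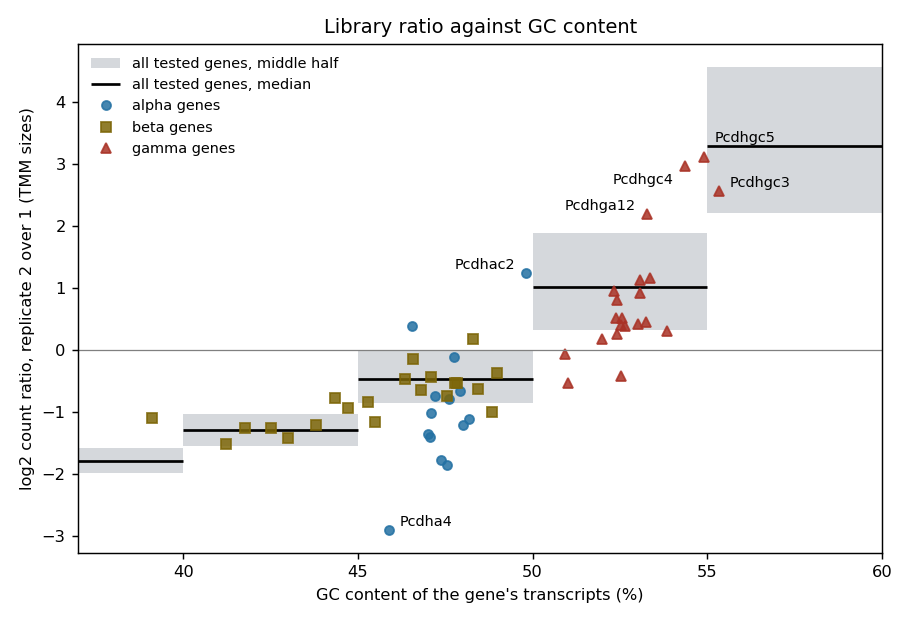
Log2 count ratio of replicate 2 over replicate 1 (TMM sizes) against transcript GC content in percent for the 56 members tested. Circles are alpha, squares beta and triangles gamma genes; black lines are the medians and grey boxes the middle quartiles of all tested genes in each class of 5 percentage points. Beta genes follow the class medians, most alternate alpha and gamma genes lie below them, and Pcdhac2, Pcdhga12, Pcdhgc4 and Pcdhgc5 lie above.

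Protocadherins outside the clusters, single genes without shared constant exons, were more abundant per gene, the median member standing at 10.2 TPM in replicate 2 and at 8.37 TPM in replicate 1. Of 14 symbols listed 13 were found, Pcdh21 being an older symbol of Cdhr1. In replicate 2, 2 were called higher and 7 lower, where 34.5% of all genes were called higher and 24.0% lower. Pcdh1 had 74.5 TPM in replicate 2 and 1.01 TPM in replicate 1 at a GC content of 59.5%. Pcdh12 was called higher from 13 counts in replicate 2 and 2 counts in replicate 1. Pcdh7, Pcdh9, Pcdh11x, Pcdh15, Pcdh17, Pcdh19 and Pcdh20 were called lower. Pcdh9 had 47.3 TPM in replicate 2 and 48.3 TPM in replicate 1, and Pcdh7 had 38.3 TPM in replicate 2 and 49.4 TPM in replicate 1. Their median log2 count ratio was -1.02, close to that of the alpha genes, at a median GC content of 45.6%.

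Of 19 genes for CTCF, cohesin and chromatin regulators linked to protocadherin promoter choice, replicate 2 was called higher for 4 and lower for 9. The all-gene shares were 34.5% higher and 24.0% lower. The median log2 count ratio of the 19 genes was -0.97. Ctcf, the DNA-binding protein that anchors the promoter loops, had 39.2 TPM in replicate 2 and 33.1 TPM in replicate 1 and passed no call. Rad21, a cohesin subunit, had 72.3 TPM in replicate 2 and 77.3 TPM in replicate 1 and was called lower, as were Smc3, Stag1, Stag2, Nipbl, Wapl, Pds5a, Pds5b and Smchd1. Pds5b, a regulator of cohesin, had 31.6 TPM in replicate 2 and 49.4 TPM in replicate 1. Smchd1, a chromatin protein that represses clustered protocadherin genes in mice, had 16.7 TPM in replicate 2 and 21.4 TPM in replicate 1. Mau2, the partner of Nipbl in loading cohesin, and Dnmt1, Dnmt3b and Wiz were called higher. Dnmt3b, a DNA methyltransferase that marks these promoters early in mouse development, had 16 counts in replicate 2 and 3 counts in replicate 1.

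Of 24 genes for the proteases and intracellular partners of protocadherins, 8 were called higher and 8 lower, with a median log2 count ratio of -0.21. The all-gene shares were 34.5% higher and 24.0% lower. Adam10, which sheds protocadherin ectodomains, was called lower, with 30.3 TPM in replicate 2 and 44.5 TPM in replicate 1. The gamma-secretase genes Psen2, Ncstn, Aph1a and Psenen were called higher and Aph1b lower. Psenen had 109 TPM in replicate 2 and 6.43 TPM in replicate 1. The kinase gene Ptk2b, whose product is bound and inhibited by protocadherin constant domains, was called higher, with 166.8 TPM in replicate 2 and 34.4 TPM in replicate 1. Brk1, a WAVE complex subunit, Nlgn2 and Axin1, the partner of Pcdhgc3, were also called higher. The WAVE complex genes Nckap1, Abi1 and Abi2 were called lower, as were Marcks, Nlgn1 and Pdcd10. Nckap1, the highest of the list, had 254.8 TPM in replicate 2 and 331.7 TPM in replicate 1. Pak1, a kinase that acts below Rac1, had 246.9 TPM in replicate 2 and 205.2 TPM in replicate 1 and passed no call. In none of the 3 lists did all called genes go in 1 direction. In the last list the 8 called higher had 50.2 to 59.5% GC and the 8 called lower 38.6 to 45.1%.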

How the data were processed

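The authors deposited expected counts, in which reads matching several transcripts are divided among them, so that values are often not whole. TPM, FPKM and their posterior versions were deposited by the authors per gene and transcript, as was the percent of a gene's level held by each transcript. Per the deposited file listing, the build is mm10 and the annotation GENCODE M4. Quantifier, aligner, their versions, the use of strand and the level of the deposited credibility intervals are not stated in the labels or files used. Whether the libraries share an RNA extract is likewise not stated, so p-values measure the difference between 2 libraries, which may be technical.

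Symbols, exons and transcript lengths came from GENCODE M21 on GRCm38, and all 87 transcripts of the members had the deposited length. GC content was that of a gene's transcripts weighted by TPM. Genes with 10 counts or more over both libraries were tested. Their expected counts were rounded and compared by a two-sided exact binomial test (scipy 1.17.1) with TMM sizes (edgeR 4.0.16, R 4.3.3), adjusted by Benjamini-Hochberg. Calls needed an adjusted p under 0.05 and a 2-fold difference after 0.5 was added to each count. The script was tested on simulated data. Log2 TPM ratios add 1 TPM, which understates low genes. The tests of edgeR and DESeq2 could not be fitted with 1 library a side. A count of 0 allows 3 counts, a share of 1.68e-05% in replicate 2 and 1.64e-05% in replicate 1. Reads carry no molecular identifiers, so intervals cover counting error only.

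The members and lists were chosen with earlier results of these data known. Named genes were the C-type genes, the 3 of highest mean TPM and the highest and lowest log2 ratio in each cluster, members called against their cluster, and in the lists those called and the 2 highest. Alternatives covered scaling, filters, fold minimum, pseudocount, GC class, posterior estimates and, chosen after seeing the data, long first exons and the deposited intervals. The signal tracks were not used here, and 1 gene of the partner list is not reported here. Other tools were Python 3.11.15, numpy 2.4.6, pandas 2.3.3 and matplotlib 3.10.9.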

Additional observations from a re-analysis of the deposited data

Results flagged for a closer look

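Counts above the 3 that a count of 0 allows were found for 7 of 23 other genes whose span overlaps a cluster, which the comparisons of members do not use. In the gamma cluster, the polymorphic pseudogene Pcdhgb8 had 24.7 counts in replicate 2 and 9.58 in replicate 1. Gm26672, on the opposite strand, had 28 counts in replicate 2 and 19 in replicate 1. Gm38182, on the same strand as the cluster, had 21.7 counts in replicate 2 and 0 in replicate 1. The antisense gene BC037039 had 15 counts in replicate 2 and 2 in replicate 1. In the alpha cluster, the antisense gene Gm10545 had 5 counts in replicate 2 and 12 in replicate 1. Gm10544, also on the opposite strand, had 4 counts in replicate 2 and 8 in replicate 1. The pseudogene Gm19035 had 1 count in replicate 2 and 4 in replicate 1. Whether these counts share reads with members was not tested. Gm37013, Gm37388 and Gm42416, protein-coding models that run from the alpha into the gamma cluster, were at 0 in both libraries. All 23 together held 104.4 counts in replicate 2 and 62.6 in replicate 1.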

How the results depend on the processing

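DESeq2 size factors, posterior mean counts and no count minimum gave the same calls, 7 members higher and 16 lower. The shares of all genes higher and lower were 34.4% and 24.3% with DESeq2 size factors. They were 34.3% and 24.0% with posterior mean counts, and 26.9% and 18.8% with no count minimum. With library totals (all genes 43.6% higher and 7.9% lower), 3 alpha and 0 beta members were called lower and 14 gamma members higher. Without a fold minimum (all genes 43.6% and 39.2%), 18 beta members were called lower, 15 gamma members higher and 2 gamma members lower. At a fold of at least 4 (all genes 24.9% and 2.49%), 0 alpha members were called higher, 1 alpha member lower and 0 beta members lower. With GC class medians removed (all genes 13.1% and 10.3%), 3 alpha and 0 beta members were called lower, and 3 gamma members higher and 3 lower. By deposited intervals (genes with a mean TPM of 1 or more 59.5% and 15.0%), alpha had 2 higher and 1 lower. Beta had 4 higher and 2 lower, and gamma 19 higher. With long first exons (all genes 34.6% and 24.0%), 2 alpha members were called higher. The alpha sum was then 55.0 TPM in replicate 2 and 36.3 TPM in replicate 1. The gamma sum was 182.1 and 40.5 TPM, and the gamma C-type share 51.3% and 15.8%. Posterior mean TPM gave alpha sums of 52.8 and 52.0. The median log2 ratio of alpha, 0.0096 over TPM + 1, was -0.016 with posterior mean TPM, -0.90 and -0.42 with CPM (counts scaled to a fixed depth) by TMM and by totals, and -0.19 with FPKM. That of beta, 0.066, was -0.65, -0.13 and -0.14 in the last 3 of these. That of gamma, 1.03, was 1.36 with a pseudocount of 0.1, 0.46 with TMM-scaled CPM and 0.67 with FPKM. At a TPM of at least 2, 8 gamma members counted in replicate 1. Means without 1 replicate ranged from 54.7 to 56.5 TPM for alpha, 57.5 to 63.0 for beta and 46.0 to 277.1 for gamma. Beyond the shift that scaling itself brings, the cause of these changes was not tested. No paired analysis was possible because there is 1 group. The edgeR and DESeq2 tests were not run, since 1 library a side leaves no residual degrees of freedom. Depth limits Pcdhb1 and Pcdha8, with 10.4 counts in replicate 2 and 25.0 in replicate 1 for the second.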
